A study of Mus musculus with 6 samples.

Results

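The mitochondrial ribosomal protein genes of mouse are the nuclear genes with symbols of the form Mrpl or Mrps followed by a number. They were chosen by symbol alone, without use of any measured value, and 78 of the 24594 genes in the count table carried such a symbol. Of these, 77 had 10 or more counts in at least 3 libraries and are reported here, 49 Mrpl and 28 Mrps genes, and all 77 passed the expression filter of the test. RNA-seq was run on epithelial organoids from the proximal small intestine of adult mice, small structures grown in gel from crypts. The +Dox group (3 libraries, titled plusDOX) had doxycycline at 1 µg/ml for 48 h from passaging, and the -Dox group (3 libraries, titled minusDOX) had none. All 6 libraries carried the TetON-hYAP/H2B-mCherry alleles, in which doxycycline switches on a human YAP, a transcriptional coactivator restrained by the Hippo pathway, here as the constitutively active S127A form, together with a red fluorescent histone. Since every doxycycline library also carried the transgene, drug and YAP cannot be told apart. The labels' protocol takes crypts from 1 animal per sample but does not say whether the libraries of a group had different animals, so p-values measure the spread between these libraries, which may be technical.

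Mitochondria keep a small genome of their own, and its few protein products, all of them subunits of the respiratory chain or the ATP synthase, are made inside the organelle on a dedicated ribosome. The ribosomal RNAs of that ribosome are encoded in mitochondrial DNA, but every one of its proteins is encoded in the nucleus, made in the cytosol and imported. Some of these proteins descend from bacterial ribosomal proteins, and others have no bacterial counterpart. In the intestinal epithelium, dividing crypt cells and differentiated enterocytes differ in their use of mitochondria.

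The libraries held 11258768, 12698043 and 16803062 counts in +Dox I, II and III, and 14643817, 11182703 and 8533452 counts in -Dox I, II and III. Library -Dox III stood apart. Its Spearman correlation across genes was 0.911 and 0.916 with the other -Dox libraries, which had 0.996 between them, and the +Dox pairs had 0.993 to 0.995. A model that weights libraries by quality gave -Dox III a weight of 0.057, against 0.932 to 2.33 for the other 5. Epithelial markers (7 genes, Epcam and Krt19 among them) summed to 17844 to 19031 CPM (counts scaled to a common library size) in +Dox and 4318 to 4999 CPM in -Dox. The markers were not alike in this. Krt19 had 8662 to 9217 CPM in +Dox and 1463 to 1736 CPM in -Dox. Epcam had 538.4, 512.3 and 532.8 CPM in +Dox and 401.5, 439.3 and 907 CPM in -Dox, and Cdx2 had 470 to 492 and 318 to 424 CPM. Mesenchymal markers (5 genes) summed to 0.924 to 1.69 CPM in +Dox and 3.42 to 6.14 CPM in -Dox, with Col1a1 and Dcn at 0 in every library. Endothelial markers (3 genes, Kdr at 0) summed to 0.303 to 0.847 CPM in +Dox and 0.584 to 0.923 CPM in -Dox, immune markers (4 genes) to 1.41 to 2.50 CPM in +Dox and 1.69 to 3.97 CPM in -Dox, and muscle markers (3 genes) to at most 0.740 CPM in +Dox and 0.201 CPM in -Dox. Enterocyte markers (Alpi, Fabp1, Apoa1) summed to 12394 to 12707 CPM in +Dox and 1430 to 2575 CPM in -Dox, while the stem cell markers Lgr5 and Olfm4 summed to 6.16 to 8.23 CPM in +Dox and 3337 to 4739 CPM in -Dox. Enterocyte and stem cell markers therefore moved with the treatment, and their part in the results on mitochondrial ribosomal protein genes was not tested. In bulk samples, fewer cells of a type and less RNA per cell cannot be told apart.

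The mitochondrial ribosomal protein genes together took 0.194%, 0.174% and 0.179% of all counts in the +Dox libraries, against 0.289%, 0.302% and 0.524% in the -Dox libraries. After scaling of the libraries by TMM, their summed level was 2208, 2038 and 2122 CPM in +Dox and 2474, 2597 and 4500 CPM in -Dox. The groups did not overlap, and -Dox III was far above the other 5 libraries. The means were 2123 ± 85.0 CPM in +Dox and 3190 ± 1136 CPM in -Dox (SD, n = 3 each), a difference of 33.5% or -0.59 on the log2 scale. A two-sided exact permutation test of the sum gave p = 0.1, the smallest value that 3 against 3 libraries allow. Without -Dox III the -Dox mean was 2535 CPM and the sum in +Dox was 16.3% lower (log2 -0.26, exact permutation p = 0.1, again the smallest possible). The +Dox libraries carried TMM factors of 0.843 to 0.879 and the -Dox libraries 1.16 to 1.17. With total counts alone as the scale the log2 difference of the sum was -1.03, and over all genes the median log2 fold change was then -0.52, against -0.08 with TMM, so the changes below are relative to the TMM scale. On the scale of total counts 53 of the 77 genes were called lower and 0 higher, where 39.7% of all genes were called lower and 13.5% higher (53.3% in all).

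**Figure D1:**
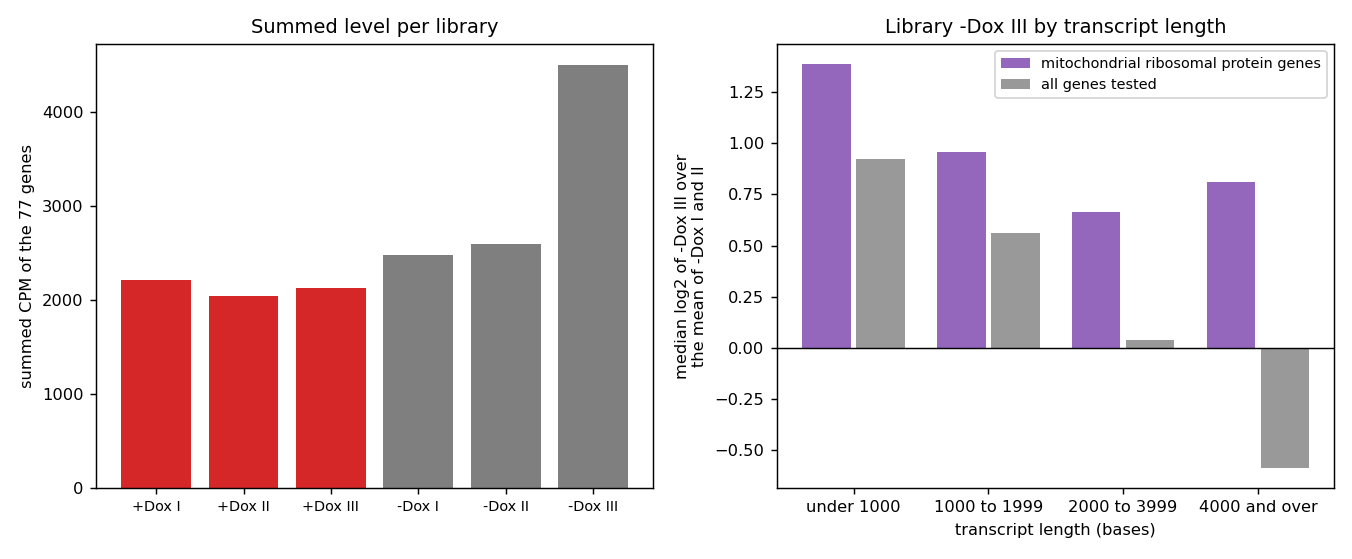
Left, summed CPM (TMM-scaled) of the 77 mitochondrial ribosomal protein genes in each library, +Dox in red and -Dox in grey: the +Dox libraries sit between 2038 and 2208, -Dox I and II at 2474 and 2597, and -Dox III at 4500. Right, the median over genes of the log2 ratio of -Dox III to the mean of -Dox I and II, by transcript length in bases, for these genes (purple) and for all genes tested (grey): it falls with length over all genes, and is higher for the mitochondrial ribosomal protein genes in each class.

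With all 6 libraries, 20 of the 77 genes (26.0%) fell and none rose in edgeR's quasi-likelihood test (Benjamini-Hochberg adjusted p under 0.05 over the 12909 genes tested). Over all genes tested, 23.6% were called lower and 21.7% higher, so the share that fell was close to the background while calls in the other direction were missing. At an unadjusted p under 0.05, 30 genes were lower and 1, Mrpl48, was higher. The share of all genes at that threshold was not counted. Unadjusted counts, here and for the classes and lists below, therefore cannot be set against a background. DESeq2 called 25 lower and 1, Mrpl48, higher, and limma-voom called 15 lower and 0 higher. Over all genes DESeq2 called 3465 lower and 3261 higher, and limma-voom 2895 lower and 2912 higher. The fitted log2 fold change was negative for 71 of the 77, and for 6889 of the 12909 genes tested. Over the 77 it had a median of -0.73 and a range of -1.58 to 1.16. CPM did not overlap between the groups for 46 genes. Of these, 42 (54.5%) were lower in every +Dox library than in every -Dox library, where 31.3% of all genes tested were. The other 4 (Mrpl48, Mrpl51, Mrps15 and Mrps22) were higher, where 30% of all genes were. The number of falls depended on single libraries. It was 21, 13 and 37 without -Dox I, II and III, and 5, 2 and 3 without +Dox I, II and III. The number called lower over all genes moved as well, from 3050 with 6 libraries. It was 2680, 2631 and 4654 without -Dox I, II and III, and 2094, 1888 and 1891 without +Dox I, II and III.

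Leaving out -Dox III brought calls in both directions. In that fit 37 genes (48.1%) were called lower and 6 (7.79%) higher, where 35.1% and 34.9% of all genes were called lower and higher (69.9% in all), and the median log2 fold change was -0.31, against -0.02 over all genes. The log2 fold change was negative for 63 of the 77, and for 6786 of the 13278 genes tested in that fit. All 20 genes that fell with 6 libraries were among the 37. The 6 called higher were Mrpl17, Mrpl43, Mrpl45, Mrpl48, Mrpl51 and Mrps24. The direction turned for 8 genes, Mrpl14, Mrpl17, Mrpl34, Mrpl35, Mrpl39, Mrpl45, Mrps6 and Mrps24, all of them negative with 6 libraries and positive without -Dox III. Groups without that library did not overlap for 46 genes lower in +Dox and 8 higher, against 41.5% and 38.7% of all genes.

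**Figure D2:**
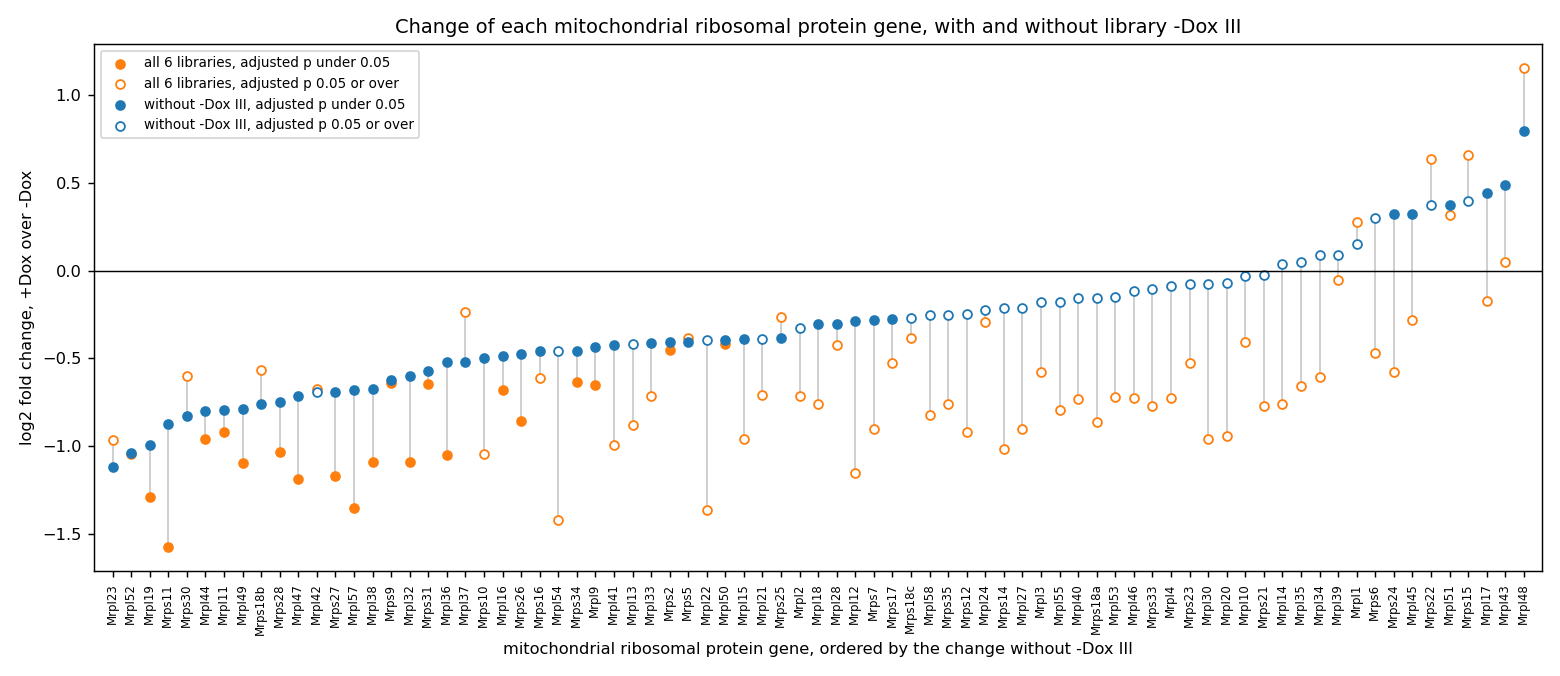
Log2 fold change, +Dox over -Dox, of each of the 77 genes with all 6 libraries (orange) and without -Dox III (blue), ordered by the blue value; filled circles passed an adjusted p of 0.05 in edgeR's quasi-likelihood test. The orange values reach from -1.58 to 1.16 with 20 filled, all below 0, and the blue ones from -1.12 to 0.80 with 37 filled below 0 and 6 above.

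Mitochondrial ribosomal protein genes have short transcripts, with a median of 1280 bases (418 to 7300), against 2873 bases over the 12329 tested genes that had a length. In -Dox III, 65 of the 77 genes were above both other -Dox libraries, 10 were below both and 2 lay between them. The median ratio of -Dox III to the mean of -Dox I and II was 2.04 (0.304 to 3.94), and 39 genes (50.6%) were at least 2-fold above that mean, where the median ratio over all genes was 0.99 and 14.15% were that far above. Across all genes the log2 ratio went with log2 length at a Pearson r of -0.45 (12210 genes of the same 3 libraries, which are no independent replicates), and across the 77 genes at -0.19. Within each length class the median log2 ratio of these genes was above that of all genes. Under 1000 bases the medians were 1.39 (27 genes) and 0.92 (805 genes), from 1000 to under 2000 bases 0.96 (26 genes) and 0.56 (2770 genes), from 2000 to under 4000 bases 0.66 (18 genes) and 0.04 (5164 genes), and from 4000 bases 0.81 (6 genes) and -0.59 (3590 genes).

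Without -Dox III the fold changes showed little relation to length. The median log2 fold changes in the same 4 classes were then -0.25, -0.32, -0.32 and -0.39 for the mitochondrial ribosomal protein genes, and -0.15, -0.01, -0.02 and 0.01 for all genes. With 6 libraries and each library's trend with transcript length removed, 16 of the 77 genes were called lower and 0 higher, with a median of -0.39, where 25.7% of all genes were called lower and 25% higher (50.6% in all). A true group difference that follows length would be removed with the trend. The genes called lower in all of these fits numbered 13: Mrpl9, Mrpl11, Mrpl19, Mrpl32, Mrpl36, Mrpl38, Mrpl44, Mrpl47, Mrpl49, Mrpl57, Mrps11, Mrps26 and Mrps27. Mrpl19 and Mrpl44 were called lower in each of the 19 fits run at the adjusted p of 0.05, and 8 of the 77 genes were called in none.

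The sequences between starts that face away from each other are shown first, because several of the genes described below share such a stretch with a neighbour whose values are given beside theirs. RefSeq (GRCm38.p6) gave a promoter for 68 of the 77 genes. Of these, 24 (35.3%) had the start of another protein-coding gene on the opposite strand within 1000 bases upstream, against 8.48% of the 17492 protein-coding genes with a promoter. Of the 24 neighbours 8 were called lower and 1, Klc4, higher with 6 libraries, where 23.6% and 21.7% of all genes were. Without -Dox III 12 were lower and 3 higher, where 35.1% and 34.9% of all genes were. Only some of the pairs are shown. The bases between the starts are given 5′ to 3′ on the strand of the first gene named, and capitals mark motif matches. Mrps11 and Mrpl46 face away from each other across 41 bases (GRCm38.p6 chr7:78783090-78783130, plus strand), with no match to a motif searched within these bases. Mrps12 and Sars2, the mitochondrial seryl-tRNA synthetase, are separated by 146 bases (chr7:28741822-28741967, minus strand), also without a match within them. Mrpl43 and Twnk, the helicase of mitochondrial DNA replication, are separated by 115 bases (chr19:45006443-45006557, minus strand), with 2 matches to the core of the ETS family. Mrpl57 and Ska3, a subunit of a spindle complex at the kinetochore, are separated by 75 bases (chr14:57826164-57826238, plus strand), with 1 match to the motif of NRF1, a regulator of many nuclear genes for mitochondrial proteins.
Mrps11-Mrpl46: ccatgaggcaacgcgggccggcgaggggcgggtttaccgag
Mrps12-Sars2: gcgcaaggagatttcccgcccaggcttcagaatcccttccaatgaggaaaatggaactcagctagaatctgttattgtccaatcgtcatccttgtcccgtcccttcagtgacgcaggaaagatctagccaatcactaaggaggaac
Mrpl43-Twnk: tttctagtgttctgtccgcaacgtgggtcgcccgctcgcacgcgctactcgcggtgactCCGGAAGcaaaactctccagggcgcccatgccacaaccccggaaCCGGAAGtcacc
Mrpl57-Ska3: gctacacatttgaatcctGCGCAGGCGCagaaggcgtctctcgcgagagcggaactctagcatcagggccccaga

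The motifs were searched on both strands of windows running 250 bases before to 50 bases after each start. The ETS core CCGGAAG, which GABPA and its relatives bind, was in 26 of the 68 windows (38.2%), against 12.95% of protein-coding genes. The palindromic NRF1 motif, 1 match of which stands in capitals in the Mrpl57-Ska3 stretch, was in 13 (19.1%), against 7.17%, and the YY1 motif AAGATGGC in 12 (17.6%), against 3.57%. The TEAD motif GGAATG, for the factors through which YAP reaches DNA, was in 8 (11.8%), against 15.5%, and the E-box CACGTG, which Myc binds among others, in 5 (7.35%), against 8.91%. A match describes the letters only and is no evidence of binding, and no test was made of these shares. No window held the ETS core and the YY1 motif with shared letters. The windows reach beyond the stretches shown above, and some matches lie outside those stretches. Mrps11 had matches to the YY1 and TEAD motifs in its windows, and Mrpl46 to the TEAD motif. Mrps12 had matches to the ETS core and the YY1 motif, and Mrpl57 to the ETS core beside NRF1.

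Among the large-subunit proteins with a bacterial homologue, 7 of 30 genes (23.3%) fell and 0 rose (median log2 change -0.76), and without -Dox III 13 (43.3%) were called lower and 1 higher (median -0.30). The share that fell was close to the 23.6% of all genes called lower with 6 libraries, and the share without -Dox III stood beside 35.1% of all genes lower and 34.9% higher. The number lower was 9 and 5 without -Dox I and II, and 2, 1 and 1 without +Dox I, II and III. At an unadjusted p under 0.05, 12 were lower and 0 higher, DESeq2 called 8 lower and 0 higher, and limma-voom 5 and 0.

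Mrpl19 (chr6:81957826-81965949) had 30.6, 29.1 and 30.8 CPM in the +Dox libraries and 57.7, 63.8 and 100.5 CPM in the -Dox libraries. The +Dox values were within a few percent of each other and all below the lowest -Dox value. The means were 30.2 ± 0.916 and 74.0 ± 23.1 CPM (SD, n = 3 each), with a log2 fold change of -1.29 ± 0.24 (SE, edgeR adjusted p = 0.00479), and of -0.99 without -Dox III (adjusted p = 4.69e-08). Because 39.2% of its exonic bases overlap Gcfc2 on the opposite strand, and use of strand in counting is not given, its counts are uncertain. Mrpl11, at the base of the flexible stalk that recruits translation factors, had 5.36, 4.25 and 4.59 CPM in +Dox and 8.71, 7.77 and 10.46 CPM in -Dox, with no overlap and little spread within the groups (log2 -0.92, adjusted p = 0.016). Its adjusted p was 0.00353 without -Dox III and at most 0.0740 over the fits that left out 1 library, with the call lost without +Dox II and without +Dox III.

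Mrpl47, Mrpl32 and Mrpl36, also of this class, fell with -Dox III far above the other -Dox libraries. Mrpl47 had 17.3, 12.1 and 15.3 CPM in +Dox and 25.9, 23.4 and 52.6 CPM in -Dox (log2 -1.19, edgeR adjusted p = 0.0291). Mrpl32, which is matured by an inner-membrane protease before it joins the ribosome, had 15.7, 13.5 and 13.3 CPM in +Dox and 22.3, 20.8 and 47.5 CPM in -Dox (log2 -1.09, adjusted p = 0.0375). Mrpl36 had 46.7, 45.0 and 46.5 CPM in +Dox and 63.2, 70.4 and 153.1 CPM in -Dox (log2 -1.05, adjusted p = 0.0432). In all 3 genes the groups did not overlap, and -Dox III lay at least 2-fold above the mean of -Dox I and II (2.13-fold, 2.20-fold and 2.29-fold). Without that library the log2 fold changes were -0.72, -0.60 and -0.52 and the calls remained. The calls were lost without +Dox I, II or III, with adjusted p of at most 0.111, 0.122 and 0.132.

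The remaining stalk proteins did not pass the test with 6 libraries. Mrpl12, which forms the mobile part of the stalk, had 78.7, 56.8 and 64.4 CPM in +Dox and 78.2, 86.0 and 281.0 CPM in -Dox (log2 -1.15, edgeR adjusted p = 0.103). The value of -Dox III was 3.42-fold that of the mean of -Dox I and II, and +Dox I lay within the -Dox range. Without that library the log2 fold change was -0.29 (adjusted p = 0.0331). Mrpl10, which anchors the stalk, had 77.7, 67.6 and 71.7 CPM in +Dox and 72.2, 77.1 and 138.7 CPM in -Dox. Its log2 fold change was -0.41 (adjusted p = 0.259) with 6 libraries and -0.03 without -Dox III. Of the 5 stalk genes 1 (20%, against 23.6% of all genes) was called lower with 6 libraries. Without -Dox III 2 (40%, against 35.1% of all genes) were, so both shares were near the background.

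Several large-subunit genes with bacterial homologues changed sign without -Dox III. Mrpl34 had 62.6, 42.1 and 49.5 CPM in +Dox and 45.0, 52.7 and 137.7 CPM in -Dox, so that the first 2 -Dox libraries lay within the +Dox range. Its log2 fold change was -0.61 with 6 libraries and 0.09 without -Dox III, and neither passed the test. Mrpl17 had 68.4, 59.3 and 62.5 CPM in +Dox and 45.3, 48.8 and 120.9 CPM in -Dox, with +Dox above -Dox I and II and below -Dox III. The log2 fold change was -0.17 (edgeR adjusted p = 0.739) with 6 libraries and 0.45 (adjusted p = 0.000527) without that library. Mrpl14 and Mrpl35 had log2 fold changes of -0.76 and -0.66 with 6 libraries and of 0.04 and 0.05 without it, none of them past the threshold. Mrpl3 had a log2 fold change of -0.58 with 6 libraries and -0.18 without, and passed in neither.

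**Figure D3:**
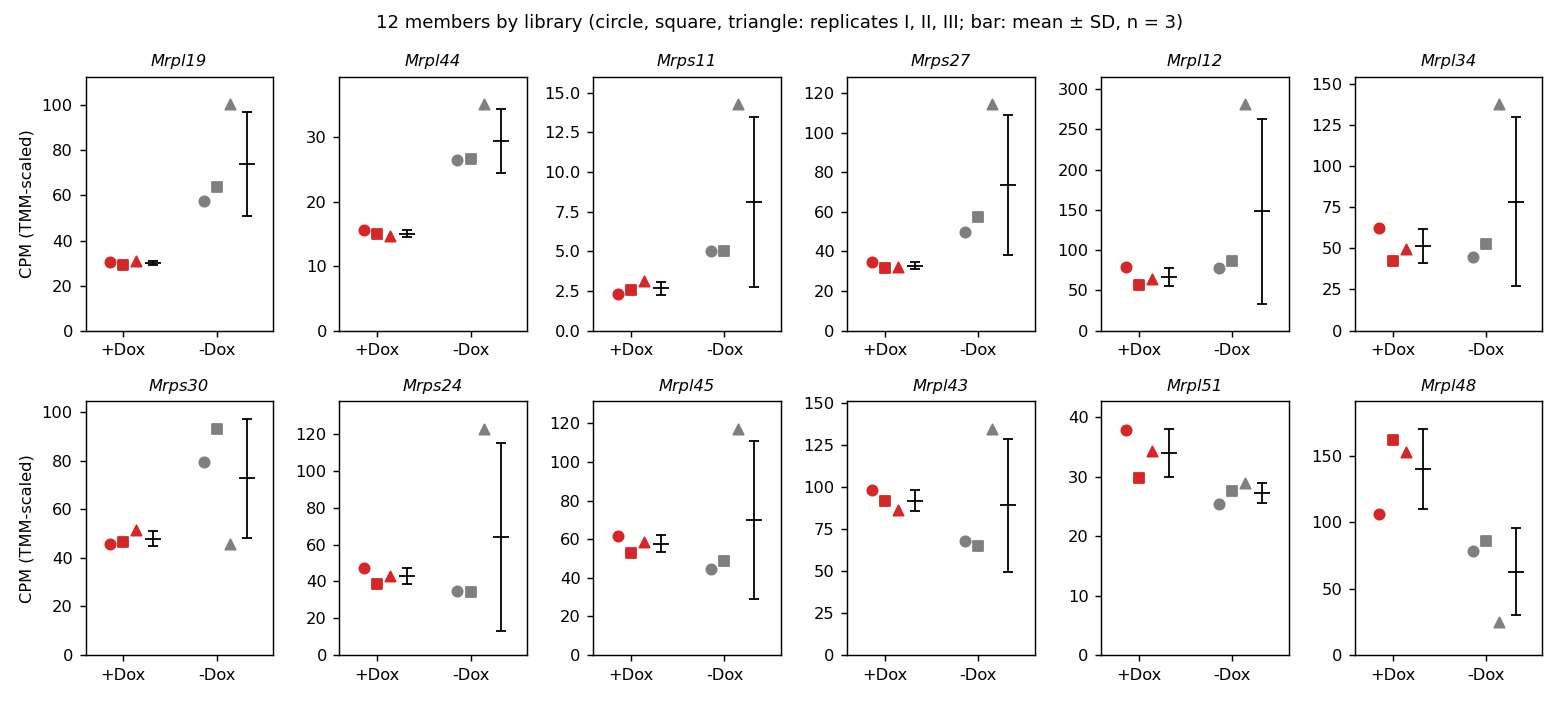
CPM (TMM-scaled) of 12 genes in each library, +Dox in red left of -Dox in grey, with circles, squares and triangles for replicates I, II and III and bars for mean ± SD (n = 3). In Mrpl19, Mrpl44, Mrps11 and Mrps27 every +Dox value lies below every -Dox value. In Mrps11, Mrps27, Mrpl12, Mrpl34, Mrps24, Mrpl45 and Mrpl43 the -Dox III triangle lies far above the other -Dox values. In Mrps30 and Mrpl48 that triangle lies far below them.

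Large-subunit proteins without a bacterial homologue gave 5 falls (25%) and 0 rises among 20 genes (median log2 fold change -0.72), and 9 (45%) lower and 4 (20%) higher without -Dox III (median -0.41). Over all genes 23.6% were called lower with 6 libraries, again close to the share of this class, and 35.1% lower and 34.9% higher without -Dox III. The number lower was 6 and 4 without -Dox I and II, and 3, 1 and 2 without +Dox I, II and III. At an unadjusted p under 0.05, 7 were lower and 1 higher, DESeq2 called 7 lower and 1 higher, and limma-voom 4 and 0. Mrpl44, a protein with a fold related to ribonuclease III, had 15.6, 15.0 and 14.6 CPM in +Dox and 26.4, 26.5 and 35.1 CPM in -Dox. The groups were well apart, and -Dox III was only moderately above the others. It fell by 0.96 ± 0.18 on the log2 scale (SE, edgeR adjusted p = 0.00535) and by 0.80 without -Dox III, and the call remained with each library left out (adjusted p at most 0.0342). Mrpl49 had 37.0, 32.7 and 38.5 CPM in +Dox and 61.0, 65.2 and 105.9 CPM in -Dox, again without overlap (log2 -1.10, adjusted p = 0.0103), and was lost only without +Dox II (adjusted p = 0.0547).

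Mrpl57 had 45.4, 37.99 and 39.5 CPM in +Dox and 66.5, 65.6 and 181.9 CPM in -Dox, with -Dox III high and the groups apart. Its log2 fold change was -1.35 (edgeR adjusted p = 0.0350), and -0.68 without -Dox III (adjusted p = 6.74e-06). Its neighbour Ska3, chosen after its values were seen, had 4.24, 3.70 and 4.80 CPM in +Dox and 22.2, 19.3 and 17.7 CPM in -Dox. The log2 fold change of Ska3 was -2.21, and -2.27 without -Dox III. Mrpl38 had 14.3, 8.50 and 10.8 CPM in +Dox and 15.8, 20.3 and 35.9 CPM in -Dox (log2 -1.09, adjusted p = 0.0426). The groups did not overlap, but +Dox I lay just below -Dox I. Mrpl57 lost its call without +Dox I, II or III and Mrpl38 also without -Dox II, with adjusted p of at most 0.119 and 0.148.

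The 4 genes of this class called higher without -Dox III were Mrpl43, Mrpl45, Mrpl48 and Mrpl51, of which Mrpl43, Mrpl48 and Mrpl51 were chosen with their values in view. Mrpl48 had 105.9, 162.3 and 152.8 CPM in +Dox and 78.0, 85.6 and 24.8 CPM in -Dox, so all +Dox values were higher and -Dox III was low. The log2 fold change was 1.16 (edgeR adjusted p = 0.0720) with 6 libraries and 0.80 (adjusted p = 0.00603) without -Dox III. Mrpl51 had 37.9, 29.8 and 34.4 CPM in +Dox and 25.4, 27.5 and 28.9 CPM in -Dox, also without overlap and with -Dox III close to the others. Its log2 fold change was 0.32 (adjusted p = 0.152) and 0.38 (adjusted p = 0.0115) without -Dox III, and it was -0.12 when total counts alone set the scale. Mrpl45, which holds the ribosome to the inner membrane at the tunnel exit, had 61.6, 52.8 and 58.5 CPM in +Dox and 44.6, 48.5 and 117.3 CPM in -Dox. The +Dox values lay between -Dox I and II on one side and -Dox III on the other, and the log2 fold change was -0.28 with 6 libraries and 0.32 without -Dox III (adjusted p = 0.00797).

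Mrpl43 and Twnk, whose starts are 116 bases apart across the stretch shown above, had unlike values. Mrpl43 had 98.3, 91.7 and 86.3 CPM in +Dox and 67.7, 64.8 and 135.0 CPM in -Dox, a log2 fold change of 0.05 (edgeR adjusted p = 0.912), and 0.49 (adjusted p = 7.43e-05) without -Dox III, and -0.39 when total counts alone set the scale. Twnk had 78.4, 73.0 and 74.8 CPM in +Dox and 124.9, 118.8 and 100.3 CPM in -Dox, a log2 fold change of -0.61 (adjusted p = 0.0166), and -0.68 without -Dox III. The difference between the 2 genes was not tested, and 27.5% of the exonic bases of Mrpl43 overlap Twnk on the opposite strand, so that reads of the pair may have been mixed in counting.

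Mrps30 and Mrps18a are proteins of the large subunit despite their symbols. Mrps30 had 45.6, 46.5 and 51.6 CPM in +Dox and 79.3, 93.1 and 45.5 CPM in -Dox, so that -Dox III was at the level of the +Dox libraries. Its log2 fold change was -0.60 (edgeR adjusted p = 0.108) with 6 libraries and -0.83 (adjusted p = 3.05e-07) without -Dox III. Mrps18a, 1 of 3 relatives of the bacterial S18 protein, had 13.4, 12.7 and 13.7 CPM in +Dox and 15.4, 14.5 and 42.8 CPM in -Dox. The groups did not overlap, yet the log2 fold change was -0.86 (adjusted p = 0.147), and -0.16 (adjusted p = 0.382) without -Dox III. Mrpl58, a peptidyl-tRNA hydrolase built into the large subunit, had log2 fold changes of -0.83 with 6 libraries and -0.25 without and passed in neither. Mrpl39, also without a bacterial homologue, had -0.05 with 6 libraries and 0.09 without and passed in neither.

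Among small-subunit proteins with a bacterial homologue, 4 of 17 genes (23.5%, against 23.6% of all genes) fell and 0 rose (median log2 change -0.61), and without -Dox III 10 (58.8%, against 35.1% of all genes) were called lower and 1 (5.88%, against 34.9%) higher (median -0.28). The number lower was 3 and 3 without -Dox I and II, and 0 without +Dox I, II or III. At an unadjusted p under 0.05, 7 were lower and 0 higher, DESeq2 called 6 lower and 0 higher, and limma-voom 3 and 0. Mrps11 had 2.32, 2.59 and 3.11 CPM in +Dox and 5.03, 4.998 and 14.3 CPM in -Dox, a low level with -Dox III again highest. The log2 fold change was -1.58 (edgeR adjusted p = 0.0333), the lowest of the 77 genes with 6 libraries. Without -Dox III it was -0.88 (adjusted p = 0.00955), and Mrpl23, Mrpl52 and Mrpl19 had lower values (-1.12, -1.04 and -0.99). Mrpl46, across the 41 bases shown above and chosen after its values were seen, had 11.8, 10.6 and 10.52 CPM in +Dox and 11.9, 12.2 and 30.8 CPM in -Dox. Its log2 fold change was -0.73 (adjusted p = 0.178), and -0.12 (adjusted p = 0.556) without -Dox III. The difference between these neighbours was not tested.

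Mrps28 had 4.95, 3.60 and 4.17 CPM in +Dox and 7.71, 6.61 and 11.9 CPM in -Dox, without overlap (log2 -1.04, edgeR adjusted p = 0.0273; -0.75 without -Dox III). Mrps11 and Mrps28 lost their calls without +Dox I, II or III, with adjusted p of at most 0.111 and 0.107. Mrps12, a protein of the decoding centre, had 15.6, 19.3 and 17.7 CPM in +Dox and 21.15, 20.99 and 57.6 CPM in -Dox. Its groups did not overlap, but its log2 fold change of -0.92 did not pass (adjusted p = 0.114), nor did -0.25 without -Dox III (adjusted p = 0.125). Its neighbour Sars2 fell, with 3.74, 3.42 and 3.32 CPM in +Dox and 8.30, 6.46 and 11.9 CPM in -Dox (log2 -1.34, adjusted p = 0.00893; -1.08 without -Dox III).

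Mrps16, a gene mutated in a human mitochondrial disease, had 6.77, 6.19 and 7.34 CPM in +Dox and 9.47, 9.38 and 12.3 CPM in -Dox. No value overlapped, and the log2 fold change was -0.61 (edgeR adjusted p = 0.0551) with 6 libraries and -0.46 (adjusted p = 0.0450) without -Dox III. Mrps24 had 47.0, 38.4 and 42.9 CPM in +Dox and 34.9, 34.1 and 123.0 CPM in -Dox. It was below -Dox III and above -Dox I and II in every +Dox library, with a log2 fold change of -0.58 (adjusted p = 0.387), and of 0.32 (adjusted p = 0.0153) without -Dox III. Mrps6 turned in the same way, with -0.47 and 0.30, and passed in neither. The relatives of S18 in the small subunit were low: Mrps18b had log2 fold changes of -0.57 (adjusted p = 0.174) and -0.76 (adjusted p = 0.0129 without -Dox III), and Mrps18c, at 0.212 to 1.57 CPM, had too few counts to show a change of that size.

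Small-subunit proteins without a bacterial homologue gave 4 falls (44.4%, against 23.6% of all genes) and 0 rises among 9 genes (median log2 fold change -0.64), and 5 (55.6%, against 35.1% of all genes) lower and 0 higher without -Dox III (median -0.38). The number lower was 3 and 1 without -Dox I and II, and 0 without +Dox I, II or III. At an unadjusted p under 0.05, 4 were lower and 0 higher, and DESeq2 called 4 lower and 0 higher, and limma-voom 3 and 0. Mrps27, a pentatricopeptide-repeat protein, had 34.8, 31.5 and 31.9 CPM in +Dox and 49.6, 57.2 and 114.4 CPM in -Dox. The groups were apart with -Dox III highest, and the log2 fold change was -1.17 (edgeR adjusted p = 0.0245), and -0.69 (adjusted p = 1.11e-05) without -Dox III. It lost its call without +Dox I, II or III (adjusted p at most 0.0910).

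Mrps34, whose loss in mice destabilises the small subunit, had 99.0, 99.9 and 91.2 CPM in +Dox and 125.2, 142.6 and 183.3 CPM in -Dox. The groups did not overlap, and the log2 fold change was -0.64 (edgeR adjusted p = 0.0282), and -0.46 (adjusted p = 9.66e-05) without -Dox III. It lost its call without -Dox II and without each +Dox library (adjusted p at most 0.123), and its counts are uncertain because a transcript of Mapk8ip3 holds 54.9% of its sequence. Mrps22, another gene mutated in human mitochondrial disease, had 4.34, 3.23 and 2.75 CPM in +Dox and 2.75, 2.54 and 1.21 CPM in -Dox. It was slightly higher in every +Dox library, and the log2 fold changes of 0.64 (adjusted p = 0.214) and 0.38 without -Dox III did not pass.

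Per kilobase of transcript, the level of the 77 genes ranged from 1.11 to 134.6 CPM per kb over the 6 libraries, with medians of 12.5 CPM per kb in +Dox and 20.8 CPM per kb in -Dox. Mrps34 was highest (105.3 in +Dox and 163.8 CPM per kb in -Dox), followed by Mrpl34 (84.7 and 129.3) and Mrpl12 (50.6 and 112.8). In -Dox the values of Mrpl34 and Mrpl12 varied between libraries by more than their means differed. The lowest were Mrpl39 (1.08 and 1.14), Mrps18c (1.14 and 1.47) and Mrpl21 (1.59 and 2.68 CPM per kb). All 3 were called in no fit. The levels of Mrpl39 and Mrps18c were too close to each other to rank, and the order of the 3 was not tested.

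Mrps36 did not reach 10 counts in 3 libraries. Despite its symbol, its product is part of the 2-oxoglutarate dehydrogenase complex. It had 6, 6 and 7 counts in +Dox and 0, 0 and 2 counts in -Dox, where the 2 counts were in -Dox III. The ratio of the summed counts after scaling was 10.9, with a 95% exact binomial interval of 2.63 to 96.6 that covers counting error only. Against a floor of 3 counts over -Dox I and II it was 5.47-fold higher, a value that leaves out the counting error of the +Dox counts. It did not pass the expression filter, and in the edgeR fit without a low-count filter it was higher at an unadjusted p under 0.05 but not at the adjusted threshold.

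The rest of the apparatus that makes and serves the mitochondrial ribosome was read through lists of genes by role, whose shares stand beside 23.6% of all genes lower and 21.7% higher with 6 libraries, and 35.1% and 34.9% without -Dox III. Of 5 mitoribosomal proteins with other symbols, 4 (80%) fell and 0 rose (edgeR; 4 lower and 0 higher at an unadjusted p, DESeq2 4 and 0, limma-voom 3 and 0), and without -Dox III 4 were called lower and 1, Aurkaip1, higher. Dap3, the GTP-binding protein of the small subunit, had 15.9, 17.9 and 17.7 CPM in +Dox and 26.6, 25.8 and 45.9 CPM in -Dox (log2 -0.93, adjusted p = 0.0250). Ptcd3, a pentatricopeptide-repeat protein of the small subunit, averaged 13.8 ± 1.86 CPM in +Dox and 25.4 ± 1.62 CPM in -Dox, where -Dox III was not raised (log2 -0.87, adjusted p = 0.00718). Chchd1 and Gadd45gip1 were the other 2 (log2 -1.40 and -0.99). Without +Dox I, II or III only 1 of the 5 was called lower in each fit, and 3 without -Dox II.

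Assembly and rRNA modification factors gave 9 falls (33.3%) and 0 rises among 27 genes (14 and 0 at an unadjusted p, DESeq2 11 and 0, limma-voom 9 and 0), and 17 (63.0%) and 0 without -Dox III. Their number lower was 5 and 6 without -Dox I and II and 5 without each +Dox library. Mrm3, a methyltransferase of the large-subunit rRNA, had 4.85, 4.16 and 4.87 CPM in +Dox and 17.4, 17.8 and 19.5 CPM in -Dox (log2 -1.97, edgeR adjusted p = 0.000376). Gtpbp10, a GTPase of large-subunit assembly, had 24.6, 17.6 and 22.2 CPM in +Dox and 64.0, 60.5 and 55.8 CPM in -Dox (log2 -1.49, adjusted p = 0.000831). In both genes -Dox III lay with the other -Dox libraries, and the fold changes without it were -1.91 and -1.52. Ngrn and Rcc1l, members of a module that modifies the large-subunit rRNA, fell as well (log2 -1.17 and -1.22).

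Of 14 mitochondrial translation factors 2 (14.3%, below the 23.6% of all genes) fell and 0 rose, Mtif2, the initiation factor, and Slirp, a partner of the mRNA-stabilising protein Lrpprc (log2 -0.68 and -0.82). With all 6 libraries 4 were lower and 0 higher at an unadjusted p under 0.05, DESeq2 called 3 and 0, and limma-voom 2 and 0. Without -Dox III 6 (42.9%) were called lower and 0 higher, and with any 1 of the +Dox libraries left out none was called. Of 17 mitochondrial aminoacyl-tRNA synthetases 7 (41.2%) fell and 0 rose with 6 libraries (8 and 0 at an unadjusted p, DESeq2 7 and 1, limma-voom 7 and 0). Without -Dox III 10 (58.8%) of the synthetases were called lower and 2 (11.8%) higher. Tars2 and Pars2, the synthetases for threonine and proline, had log2 fold changes of -1.21 and -1.06. The number of synthetases lower was 4, 4 and 5 without +Dox I, II and III. Of 8 factors of mitochondrial transcription and DNA maintenance 3 (37.5%) fell and 0 rose (4 and 0 at an unadjusted p, DESeq2 4 and 0, limma-voom 3 and 0), and 7 (87.5%) were called lower and 0 higher without -Dox III. The number was 2 with any other library left out. Tfam, which packages mitochondrial DNA and starts its transcription, had 35.9, 33.4 and 35.1 CPM in +Dox and 79.6, 80.0 and 120.2 CPM in -Dox (edgeR log2 -1.42, adjusted p = 0.00184), and Polg, the replicative polymerase, had 28.8, 30.7 and 32.3 CPM in +Dox and 49.5, 49.3 and 51.0 CPM in -Dox (log2 -0.71, adjusted p = 0.00648).

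Regulators of nuclear genes for mitochondrial proteins moved both ways, with 1 rise (11.1%) and 3 falls (33.3%) among 9 genes, and 3 (33.3%) higher and 4 (44.4%) lower without -Dox III, against 34.9% and 35.1% of all genes. The falls numbered 2 without -Dox I or II and 1 with any 1 of the +Dox libraries left out. Ppargc1a, a coactivator of mitochondrial biogenesis and of enterocyte metabolism, had 27.2, 34.3 and 35.4 CPM in +Dox and 7.60, 9.84 and 3.22 CPM in -Dox, and rose (log2 2.22, edgeR adjusted p = 0.00392; 1.92 without -Dox III). Pprc1, a growth-regulated member of the same family, had 38.3, 29.8 and 35.5 CPM in +Dox and 121.3, 124.1 and 34.1 CPM in -Dox, where -Dox III lay with the +Dox libraries (log2 -1.43, adjusted p = 0.0404). Myc, which drives ribosome genes in growing cells, averaged 144.3 ± 11.8 CPM in +Dox and 248.8 ± 11.2 CPM in -Dox (log2 -0.79, adjusted p = 0.00523). Nrf1, the factor of the motif in the Mrpl57-Ska3 stretch, had 26.1, 19.8 and 24.9 CPM in +Dox and 36.1, 34.3 and 56.2 CPM in -Dox (log2 -0.84, adjusted p = 0.0283; -0.56 without -Dox III).

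The subunits of the respiratory chain and the ATP synthase that the nucleus encodes, taken as 1 list, had shorter transcripts still (median 769.5 bases). Of 73 genes 3 (4.11%) rose and 1 (1.37%) fell, against 21.7% and 23.6% of all genes. Without -Dox III 22 (30.1%, near the 34.9% of all genes) were called higher and 3 (4.11%, against 35.1%) lower, with a median log2 fold change of -0.24 with 6 libraries and 0.20 without. The number that rose was 1 and 2 without -Dox I and II, and 2, 1 and 1 without +Dox I, II and III. The 3 that rose were Ndufv3 (113.5 ± 3.83 CPM in +Dox and 48.6 ± 9.16 CPM in -Dox, log2 1.23, edgeR adjusted p = 0.00174), Ndufb10 (log2 0.60) and Cox5a (log2 1.40), and Atp5g2 fell (log2 -0.99). With 6 libraries and the length trend removed, 9 (12.3%) were called higher and 0 lower, against 25% and 25.7% of all genes (median 0.19). With the trend removed and -Dox III left out, 32 (43.8%) were higher and 3 (4.11%) lower, against 35.6% and 35.4%. Cytosolic ribosomal proteins, with a median transcript of 777.5 bases and many near-identical copies in the genome that make their counts uncertain, gave 38 falls (48.7%, against 23.6% of all genes) and 0 rises among 78 genes (51 and 0 at an unadjusted p, DESeq2 48 and 0, limma-voom 36 and 0). Without -Dox III 62 were called lower (79.5%, against 35.1%) and 0 higher, and without +Dox I, II and III 25, 21 and 16 lower. With 6 libraries and the length trend removed, 21 (26.9%) were called lower and 0 higher, where 25.7% of all genes were called lower, a close share. With the trend removed and -Dox III left out, 49 (62.8%) were lower and 1 (1.28%) higher, against 35.4% and 35.6% of all genes. Whether the mitochondrial ribosomal protein genes differed from these lists was not tested.

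**Figure D4:**
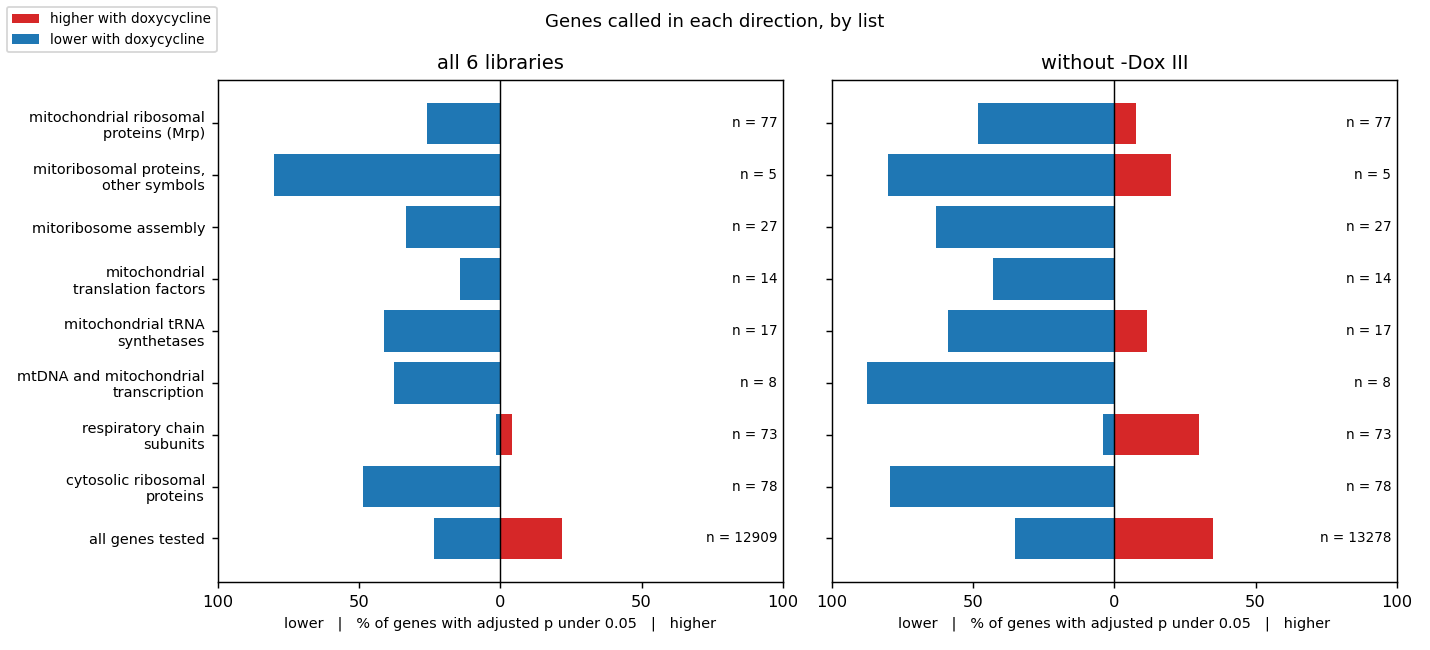
Share of the genes of each list called lower (blue, to the left) and higher (red, to the right) in edgeR's quasi-likelihood test at an adjusted p under 0.05, with all 6 libraries (left panel) and without -Dox III (right panel). For the mitochondrial ribosomal protein genes the shares are 26.0% lower and 0% higher with 6 libraries, and 48.1% and 7.79% without -Dox III, and the bottom bars give the same shares over all genes tested. The bars of respiratory chain subunits include subunits of the ATP synthase.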

How the data were processed

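Library RNA was taken with a column kit and made into TruSeq libraries sequenced on a NextSeq, per the labels' protocols. The authors deposited read counts per Entrez gene, whole and not normalized. Per the submitters' processing notes the reference was mm10, and the aligner, counter, annotation and use of strand are not given in the sources used here. RefSeq's gene table (GRCm38.p6) gave symbols to 24570 of 24594 IDs; the other 24 held 2.88 to 4.43% of a library's counts and stayed in the library sizes. Transcript lengths are from GENCODE M21.

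The test was run in edgeR 4.0.16 under R 4.3.3: expression filter by group, TMM scaling, robust quasi-likelihood F-test of +Dox against -Dox, Benjamini-Hochberg adjustment over all genes and a threshold of 0.05. The code was also run on simulated counts with few changed genes and no library set apart. That run cannot show how the test behaves on these data. CPM use TMM-scaled library sizes. Genes and lists were chosen with earlier results of these data known. Genes named were a fixed set, the 10 largest falls and rises among called genes, the 3 highest and 3 lowest per kilobase, those whose direction turned without -Dox III, genes not reported, and up to 4 of each other list by adjusted p; others are stated as chosen after their values were seen, or stand in a count of called genes. Alternatives were DESeq2 1.42.0, limma-voom 3.58.1 with and without quality weights, RLE or total-count scaling, other filters, removal of a trend with transcript length, a replicate block, each library left out and a threshold of 0.01. Near-identical copies were searched with BLAST on GENCODE transcripts: 6 of the 77 genes (Mrpl22, Mrpl23, Mrpl27, Mrpl42, Mrps10 and Mrps21) had processed pseudogenes and 4 (Mrpl53, Mrps18b, Mrps25 and Mrps34) overlapping genes with at least 95% identity over 50% of the transcript, so their counts are uncertain. A gene that the naming rule took from another list is not reported here, though it stayed in the counts.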

Additional observations from a re-analysis of the deposited data

How the results depend on the processing

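With 6 libraries 20 of the 77 genes were called lower and 0 higher. The number lower was 53 with total counts as the only scaling, 39 (6 higher) in limma-voom with quality weights, 34 (9 higher) with the length trend removed and -Dox III left out, 2 at a threshold of 0.01 and 2 to 37 over the fits that left out 1 library, in which 0 to 6 were higher. DESeq2 called 1 higher. With total counts and without -Dox III, an alternative added after the data were seen, 61 were lower and 1 higher. The median log2 fold change of -0.73 became -1.17 with total counts, -0.27 with the length trend removed and -Dox III left out, and -0.94 to -0.31 with 1 library left out. The log2 ratio of the sum was -0.59, and -1.03 with total counts.

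Over all genes 5850 were called (2800 higher, 3050 lower). This became 3477 (1780 and 1697) at 0.01, 9431 (4731 and 4700) with the length trend removed and -Dox III left out, 9548 (4663 and 4885) with quality weights and 10030 (7180 lower) with total counts without -Dox III. Total counts alone gave 1747 higher and 5128 lower. Leaving out 1 library gave 3836 to 9286 calls (1945 to 4632 higher, 1888 to 4654 lower).

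Whether equal replicate numbers mark paired samples is not known. The correlations of same-numbered deviations from the group means were -0.30, 0.12 and -0.19, and those of unlike numbers -0.22 to 0.29. Library -Dox III stood apart and moved the -Dox means, so these correlations cannot decide whether the samples were paired. With the replicate number as a block 6 of the 77 genes were called lower and 0 higher. Over the 12909 genes tested 2248 were then lower and 2261 higher. With the length trend removed as well, 10 of the 77 were called lower and 0 higher, against 2659 and 2826 over all genes.

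Among the genes with log2 fold changes in the text the following signs turned, and Mrpl1, Mrpl20, Mrpl30, Mrpl37, Mrps15, Mrps21 and Mrps33 also turned in at least 1 fit. With 1 library left out the log2 fold change ranged from -1.05 to 0.037 for Mrpl14, -0.42 to 0.45 for Mrpl17, -0.89 to 0.088 for Mrpl34, -0.94 to 0.048 for Mrpl35, -0.27 to 0.092 for Mrpl39, -0.14 to 0.49 for Mrpl43, -0.52 to 0.32 for Mrpl45, -1.61 to 0.11 for Mrps18c, -0.89 to 0.32 for Mrps24 and -0.79 to 0.30 for Mrps6. With the length trend removed and -Dox III left out it was 0.21 for Mrpl14, 0.43 for Mrpl17, 0.27 for Mrpl34, 0.033 for Mrpl35, 0.093 for Mrpl39, 0.32 for Mrpl45, 0.39 for Mrps24 and 0.40 for Mrps6. With the length trend removed alone it was 0.041 for Mrpl34, 0.044 for Mrpl39, 0.092 for Mrps18c and 0.063 for Mrps6, and with the replicate block beside it 0.060 for Mrpl34, 0.050 for Mrpl39, 0.020 for Mrps24 and 0.12 for Mrps6. Limma-voom gave 0.022 for Mrpl39, and with quality weights 0.023 for Mrpl14, 0.38 for Mrpl17, 0.15 for Mrpl39, 0.27 for Mrpl45, 0.25 for Mrps24 and 0.25 for Mrps6. Total counts gave -0.39 for Mrpl43 and -0.12 for Mrpl51, and without -Dox III -0.080 for Mrpl51 and -0.079 for Mrps22. The cause was not tested.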
